A study of Mus musculus with 2 samples.

Results

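The 9 genes described are the mouse CXC chemokines Cxcl1, Cxcl2, Cxcl3, Cxcl5, Cxcl9, Cxcl10, Cxcl11, Cxcl14 and Cxcl16, each taken with every array probe whose RefSeq accession, without version, leads to its symbol. Of the 9, 8 had a probe and are among the 20143 genes so named on the array, with 9 probes in all, each printed once. Cxcl11, listed in RefSeq as a transcribed pseudogene, had no probe under this rule and was not analysed here. Probes of 7 genes were well above background on both arrays by the extraction software, and these 7 are called measured.

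CXC chemokines are small secreted proteins, and in a single case a membrane-bound one, that steer leukocytes through receptors of the Cxcr family. They fall into groups by role. Cxcl1, Cxcl2, Cxcl3 and Cxcl5 act on Cxcr2 and draw neutrophils, and NF-kB, a transcription factor switched on by IL-1, TNF and microbial products, is a classical activator of their genes. Cxcl9, Cxcl10 and Cxcl11 are induced by interferons and draw T and NK cells through Cxcr3, while Cxcl14 and Cxcl16 belong to neither group. Myeloid cells are a source of both groups, and MDSCs (myeloid-derived suppressor cells), a T cell-restraining population of immature myeloid cells, carry Cxcr2 themselves.

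The comparison asks how these RNAs stand when IL-6, an inflammatory cytokine, is added to GM-CSF, a myeloid growth factor. The GM-CSF + IL-6 culture received 40 ng/ml of each factor and the GM-CSF ONLY culture 40 ng/ml GM-CSF. Both held bone marrow cells of C57BL/6 mice, grown over 4 days at 5% fetal bovine serum, and each gave RNA for 1 single-colour Agilent array. There was 1 array per condition, so differences could not be set against a replicate spread and carry no p-values. Well above background were 57.9% of probes with IL-6 and 59.1% without, and no spot was saturated. Of 12 genes listed for the label's cell type, immature myeloid cells, 12 were measured on both arrays, among them Itgam, S100a8 and S100a9. Neutrophil markers were likewise measured in 11 of 11 and mast cell and basophil markers in 9 of 9. Being measured therefore does not set the labelled cell type apart from others. RNA came from whole cultures, so fewer cells of a type and less RNA per cell cannot be told apart.

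Signals below are scaled so that the 75th percentile of both arrays is 517.0 units. Log2 ratios are the plus IL-6 culture minus the GM-CSF only culture, and the error beside each is a technical SD from probes printed several times, at the same level, on these arrays. It holds the error of spots and leaves out that of labelling and culture. The extraction software's own error estimate, carried through to the log2 ratio, was wider, at 0.20 for Cxcl1, Cxcl2, Cxcl3, Cxcl10 and Cxcl16, 0.22 for Cxcl5 and 0.24 for Cxcl9.

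Cxcl10 stood apart from the other measured members, lower with IL-6 by a log2 ratio of -0.51, while the remaining 6 lay between -0.20 and 0.06. Taking a log2 ratio of 0.32 in size as a small-difference limit, 0 of 7 measured members were higher, where 4.17% of 13843 genes measured on both arrays were, and 1 of 7 was lower, where 3.55% of genes were. Counting from 2-fold, 0 of 7 were higher and 0 of 7 lower, against backgrounds of 0.282% and 0.101%. In numbers of genes, the background at 0.32 was 577 higher and 492 lower, and 300 and 125 after normexp, a background correction that lifts dim signals. The median of the 7 members was -0.11 and that of all genes -0.02, and 5 of 7 members lay below 0, as did 56.2% of genes.

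**Figure D1:**
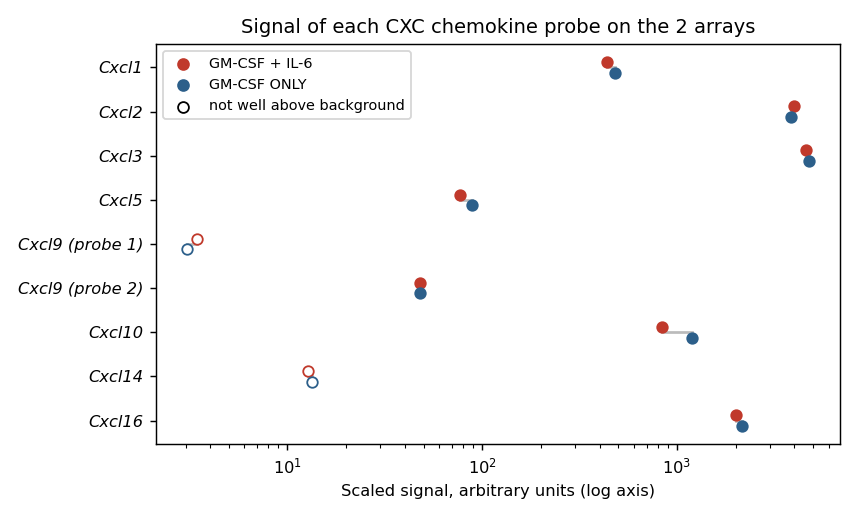
Scaled signal (log axis, arbitrary units) of each of the 9 probes on the plus IL-6 array (red) and the GM-CSF only array (blue), 1 spot each, with open points where the probe was not well above background. The pair for Cxcl10, at 837.5 with IL-6 and 1197 without, is the only pair of filled points that is clearly separated.

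The neutrophil-attracting members differed little between the cultures. Cxcl2, also known as MIP-2, had a signal of 3993 with IL-6 and 3824 with GM-CSF only, a log2 ratio of 0.06 ± 0.05. Cxcl3 had 4605 with IL-6 and 4774 without, a log2 ratio of -0.05 ± 0.05, which became 0.00 after normexp. Cxcl1, also known as KC, had 437.8 with IL-6 and 480.5 without, a log2 ratio of -0.13 ± 0.09. For Cxcl1, Cxcl2 and Cxcl3 the log2 ratio was smaller in size than the software's error of 0.20. These genes are close paralogs, and the specificity of their probes was not tested. Cxcl5, known as LIX, was dim, at 76.7 with IL-6 and 88.2 without, a log2 ratio of -0.20 ± 0.28. Its raw spot was only 2.0 times the local background with IL-6 and 2.46 times without, so a difference of this size could not be resolved. By comparison, the raw spots of Cxcl2 were 70.1 times their local background with IL-6 and 93.4 times without.

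Promoter sequences of 6 of the 9 genes were at hand from RefSeq (build GRCm38.p6), each covering 250 bases before to 50 after the start site. The stretches of Cxcl1, Cxcl2 and Cxcl3 are shown because these genes lie close together on chromosome 5, with Cxcl15 between them in RefSeq order, and share an identical kappa-B match, the letters that NF-kB is known to bind. They lie on the plus strand at chr5:90891144-90891233, chr5:90903772-90903861 and chr5:90785998-90786087, 90 bases each, and capitals mark matches on either strand to the kappa-B letters searched, GGG followed by any 2 bases and then TTTCC.
Cxcl1: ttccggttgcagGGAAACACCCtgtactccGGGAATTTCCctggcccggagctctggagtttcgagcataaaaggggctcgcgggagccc
Cxcl2: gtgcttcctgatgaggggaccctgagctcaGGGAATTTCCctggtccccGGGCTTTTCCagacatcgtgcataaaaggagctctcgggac
Cxcl3: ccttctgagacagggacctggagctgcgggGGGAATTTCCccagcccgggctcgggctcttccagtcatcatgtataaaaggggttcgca
The shared 10 letters begin at -71 from the start site in Cxcl1, -97 in Cxcl2 and -73 in Cxcl3. Cxcl1 has a second match on the other strand at -89 and Cxcl2 a second at -78. Of 32851 promoters of this length, 1.63% hold a match to this motif. A match is a description of letters, not of binding. All 3 genes with this match had log2 ratios between -0.13 and 0.06.

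Among the interferon-inducible members, Cxcl10, also known as IP-10, had a signal of 837.5 with IL-6 and 1197 with GM-CSF only. It was 1.43-fold lower with IL-6, a log2 ratio of -0.51 ± 0.06. Before any scaling between arrays its processed intensities were 787.6 with IL-6 and 1272 without. The raw spot mean was 730.8 over a local background of 47 with IL-6 and 1156 over 42 without, so both spots were far above background. Ranked over all 13843 measured genes, Cxcl10 had the 127th lowest log2 ratio. In its own 25% band of genes by level, 8 of 3461 genes, Cxcl10 included, had a log2 ratio this low, and the SD over that band was 0.13. The Cxcl10 spot lies in the third column from the edge of the array, outside the areas crowded with 2-fold different spots. The 118 measured spots around it had a median log2 ratio of -0.07, and less this value Cxcl10 stood at -0.45.

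Cxcl9, also known as MIG, had 2 probes, of which 1 was measured. That probe gave 48.1 with IL-6 and 47.9 with GM-CSF only, a log2 ratio of 0.00 ± 0.28. Its raw spots were 1.66 times the local background with IL-6 and 1.84 times without, so the Cxcl9 signal was near the limit of detection on both arrays. The other probe was not well above background on either array, at 3.44 with IL-6 and 3.05 without, and no fold is given for it. Whether Cxcl9 differed in the way Cxcl10 did could not be resolved at this signal.

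**Figure D2:**
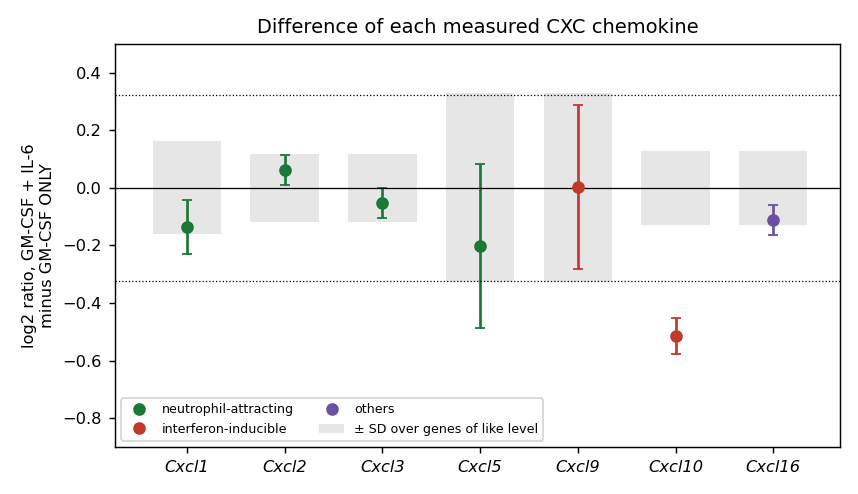
Log2 ratio (plus IL-6 minus GM-CSF only) of the 7 measured members with technical SD bars. Grey boxes span 1 SD of all genes in the same 25% band by level on either side of 0, and dotted lines mark 0.32 on either side. Cxcl10, at -0.51, is the only member beyond a dotted line and lies outside its box, while Cxcl5 and Cxcl9 have wide bars at low signal.

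The 250 bases before the start sites of Cxcl10 and Cxcl9 are shown because these are the measured interferon-inducible members. They lie on the minus strand at chr5:92348890-92349139 and chr5:92328080-92328329. Capitals mark a match to the interferon-stimulated response element, searched as GAAA, any 2 bases and GAAA again, which interferon-activated factors are known to bind.
Cxcl10: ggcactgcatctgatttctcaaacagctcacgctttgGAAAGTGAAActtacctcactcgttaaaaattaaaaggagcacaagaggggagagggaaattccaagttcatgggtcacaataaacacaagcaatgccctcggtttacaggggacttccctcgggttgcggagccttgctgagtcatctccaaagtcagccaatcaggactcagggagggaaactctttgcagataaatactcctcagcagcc
Cxcl9: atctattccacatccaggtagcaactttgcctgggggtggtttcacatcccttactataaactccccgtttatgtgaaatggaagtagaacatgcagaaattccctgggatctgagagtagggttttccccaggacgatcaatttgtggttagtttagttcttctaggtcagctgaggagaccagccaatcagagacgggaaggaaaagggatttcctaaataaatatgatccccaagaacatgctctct
Cxcl10 holds 1 match, beginning at -213, and Cxcl9 none, and 3.44% of the 32851 promoters hold this motif on either strand. The STAT site TTCNNNGAA, held by 8.3% of promoters, matched in the Cxcl14 promoter alone among the 6. The stricter kappa-B letters matched in neither Cxcl10 nor Cxcl9. A broader form, GGG and CC with any 5 bases between, chosen after the sequences were seen, matched in both, but it does so in 50.8% of promoters and overlaps each of the stricter matches.

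**Figure D3:**
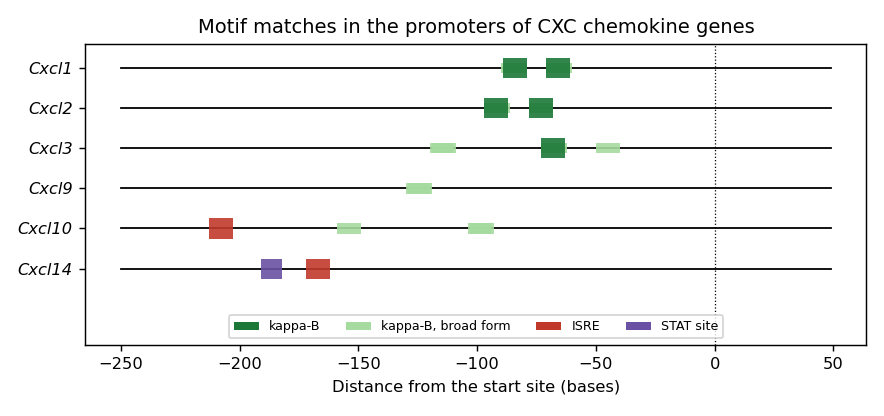
Motif matches on either strand (coloured blocks) along the promoters of the 6 members with a sequence, by distance in bases from the start site (dotted line). The stricter kappa-B matches lie between -97 and -62 in Cxcl1, Cxcl2 and Cxcl3, and the interferon-stimulated response element (ISRE) matches lie in Cxcl10 and Cxcl14.

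Of the remaining members, Cxcl16 was measured and Cxcl14 was not. Cxcl16 is made as a membrane protein that binds oxidised lipoprotein, and its shed form draws cells with Cxcr6. Its signal was 2002 with IL-6 and 2164 with GM-CSF only, a log2 ratio of -0.11 ± 0.05, inside the SD of 0.13 over genes of its level. Cxcl14, mainly a product of epithelial and stromal cells, was not well above background on either array, at 12.8 with IL-6 and 13.4 without. The raw Cxcl14 spots were 0.769 of their local background with IL-6 and 0.770 without, so these arrays show no resolved Cxcl14 signal in either culture.

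**Figure D4:**
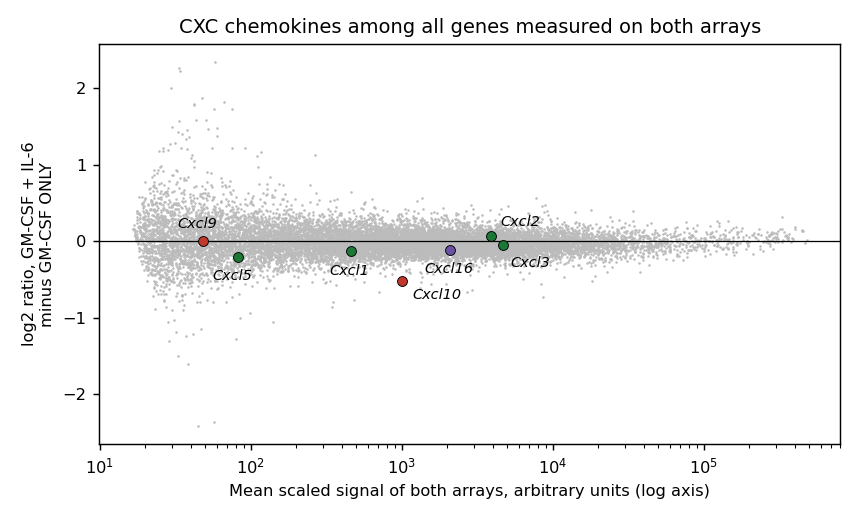
Log2 ratio (plus IL-6 minus GM-CSF only) of all 13843 genes measured on both arrays (grey) against their mean scaled signal (log axis), with the 7 measured CXC chemokines coloured by group. Cxcl10 lies at the lower margin of the cloud and the other members lie within it.

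Other members of the CXC family lay in the same range. Of 6 further CXC ligand genes, 2 were measured, both products of platelets and megakaryocytes. Pf4 had a log2 ratio of -0.12 ± 0.04 and Ppbp -0.17 ± 0.05. Cxcl12 and Cxcl13, which guide stem cells and B cells, and Cxcl15 and Cxcl17 were not well above background on either array. Platelet and megakaryocyte markers as a list, which holds both genes, were lower in 7 of 9, with a median of -0.15. Their summed signals were 35784 with IL-6 and 39077 without. Most of each sum was Pf4 itself, at 30226 with IL-6 and 32922 without, so the sums say little about the other markers. The part of platelets and megakaryocytes in these values was not tested.

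Of 8 receptor genes, 7 were measured, 6 below 0 and 1 above, with a median of -0.20. Beyond 0.32 in size, 2 were lower and 1 higher. Cxcr2, the receptor of the neutrophil-attracting ligands, had 4754 with IL-6 and 5456 with GM-CSF only, a log2 ratio of -0.20 ± 0.04. Cxcr4, the receptor of Cxcl12, had -0.03 ± 0.05 and Cxcr6, the receptor of Cxcl16, -0.15 ± 0.09. Cxcr5, the B cell homing receptor, had -0.34 ± 0.09 (198.2 with IL-6, 251.0 without). Cxcr3, the receptor of Cxcl10, was dim at 75.2 with IL-6 and 94.5 without (-0.33 ± 0.28), and Ackr1, a decoy receptor, at 31.2 with IL-6 and 20.1 without (0.64 ± 0.28). Both are named outside the rule for named genes, after their values were seen.

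Genes of the interferon route to the interferon-inducible members, a list that also holds the feedback inhibitor gene Socs1, were lower in 15 of 16 measured. Their median was -0.14, and 1 of 16 was lower by more than 0.32. That gene was Irf7, an activator of type I interferon genes, at -0.40 ± 0.06. Irf1, an interferon-induced transcription factor gene, had a log2 ratio of -0.29 ± 0.04, and Stat2, whose protein carries the type I interferon signal, -0.24 ± 0.04. The receptor gene Ifngr1 was the single member above 0, at 0.06 ± 0.04. Ifnb1, the interferon beta gene, was not well above background on either array. The interferon-stimulated genes listed, chemokines left out, were below 0 in 24 of 24, where 56.2% of all measured genes were. This list was chosen with earlier results of these data known. Its median was -0.31, and 9 of 24 were below -0.32, where 3.55% of all measured genes were. The -0.51 of Cxcl10 lay inside the list's range of -0.67 to -0.13.

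Monocyte and macrophage markers, a cell type known to make Cxcl10, were below 0 in 7 of 9 measured genes, with a median of -0.12 and 3 below -0.32. Their summed signals were 46678 with IL-6 and 50807 without, mostly from Lyz2, at 31015 with IL-6 and 33670 without. Lyz2 is named outside the rule for named genes. All 9 monocyte and macrophage markers lay outside the lowest 25% by level, and their part in the Cxcl10 difference was not tested. T and NK cell markers were below 0 in 6 of 8, with a median of -0.17, and Ncr1 and Klrb1c were not well above background. Their summed signals were 10355 with IL-6 and 9806 without, mostly from Nkg7, at 7766 with IL-6 and 7049 without. Dendritic cell markers, another cell type known to make Cxcl10, were below 0 in 7 of 8, with a median of -0.12 and 1 below -0.32. That gene was Zbtb46, at -0.34 ± 0.28, in the lowest 25% by level, where Cd209a and Clec9a lay too. These dim genes are named outside the rule for named genes. The summed signals of the dendritic list were 41074 with IL-6 and 46705 without, mostly from Ccr7, at 23982 with IL-6 and 28859 without. Xcr1 was not well above background. Mast cell and basophil markers ran the other way, above 0 in 8 of 9, with a median of 0.20 and 1 above 0.32. That gene was Tpsb2, at 0.42, whose other measured probe gave -0.11. The summed signals of this list were 56509 with IL-6 and 52677 without. Neutrophil markers were below 0 in 7 of 11, with a median of -0.03 and 0 beyond 0.32 in size. Stromal cell markers were above 0 in 4 of 7, with a median of 0.07. Beyond 0.32 in size, 2 were higher, both in the lowest 25% by level, and 1 lower. The lower gene was Vcam1, at -0.36, with a second probe at -0.11. The summed signals of the stromal list were 6713 with IL-6 and 6319 without, mostly from Lepr, at 4894 with IL-6 and 4148 without. The part of these cell types in the chemokine values was not tested.

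The route from IL-1 and TNF through NF-kB to the neutrophil-attracting members gave both signs. Of 24 measured genes, 7 were above 0 and 17 below, with a median of -0.06, and 2 were above 0.32 and 1 below -0.32. Tnf had 3379 with IL-6 and 2430 without (0.48 ± 0.02, over 9 spots), and Zfp36, whose protein brings down mRNAs with AU-rich ends, chemokine mRNAs among them, had 2199 with IL-6 and 1622 without (0.44 ± 0.06). Tnfrsf1b, a TNF receptor gene, had -0.41 ± 0.06, and Zc3h12a, an RNase that also limits inflammatory mRNAs, -0.23 ± 0.09. Proteases that trim or shed chemokines, listed together with the protease inhibitor gene Timp1, lay between -0.25 and 0.14 in 11 of 11 genes. Adam10, a sheddase of Cxcl16, had -0.15 ± 0.04, and Mmp8, a neutrophil collagenase, -0.25 ± 0.04. Probes disagreed in sign for Adam17, with -0.14 and 0.12, and for Mmp12, with -0.19 and 0.29.

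The 14 genes listed from the sister family, the CC chemokines, had a median of 0.05, with 8 of 14 above 0. Beyond 0.32 in size, 1 of 14 was lower and 1 higher. The lower gene was Ccl5, whose product draws T cells, at -0.47 ± 0.04. The higher gene was Ccl24, whose product draws eosinophils, at 0.41 ± 0.06. With 1 array per condition the difference between the CXC and CC lists was not tested.

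**Figure D5:**
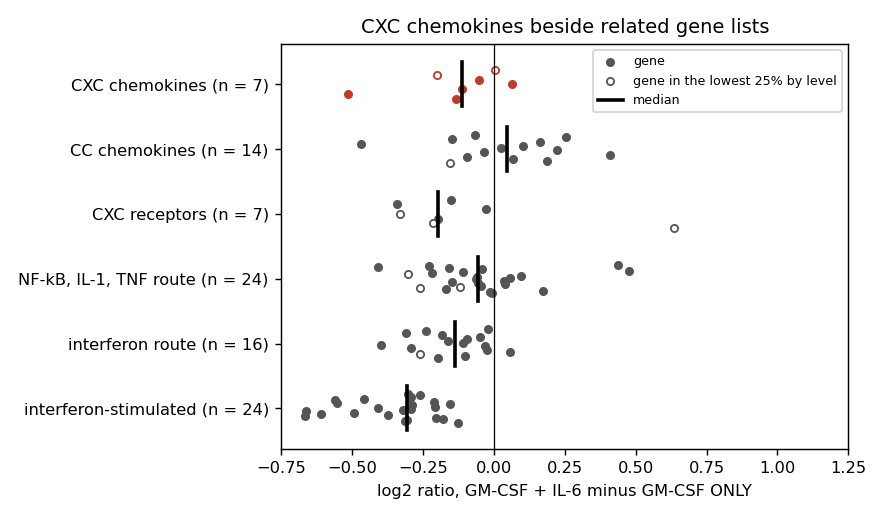
Log2 ratio (plus IL-6 minus GM-CSF only) of the measured genes of 6 lists, with open points for genes in the lowest 25% by level and a bar at each median. The CXC chemokine points spread from -0.51 to 0.06 around a median of -0.11, and those of the interferon-stimulated list lie between -0.67 and -0.13.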

How the data were processed

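Each culture's RNA was read on 1 single-colour Agilent array. Per the file headers, the deposited spot intensities come from version 10.7.1.1 of Agilent Feature Extraction, run with both kinds of detrending (spatial, multiplicative) and without separate background correction. The deposited log2 values of the authors' series matrix followed each array's own log2 signals (r = 0.99998 on both) and had the same median of 5.10 in both columns, and for that step no software is named in the sources used here.

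The value used was log2 of the processed intensity minus the array's 75th percentile over non-control spots, 486.2 with IL-6 and 549.7 without, a log2 difference of -0.18 that the scaling removed. Before it, 7 of 7 measured members lay below 0, but every gene on the arrays carried the same -0.18. The share of all genes below 0 before scaling was not counted. Outlier spots were dropped, then a probe's spots averaged. A probe was measured when at least 50% of its spots were well above background, and a gene took its brightest measured probe. Technical SDs came from 272 probes with at least 5 spots. Names came from a RefSeq table of GRCm38.p6. Crowded areas were 9 tiles of 16 rows by 12 columns holding at least 4 symbol-less probes that differed 2-fold, and the local median of a spot was taken within 10 rows and 8 columns. No protein sequences were used here. Members, lists, fold limits and alternatives were chosen with earlier results of these data known. Named genes were all members and up to 4 per list, those with the largest log2 ratios of either sign outside the lowest 25% by level, with exceptions marked. One gene that this rule names is not reported here. The analysis ran in Python 3.11.15 (numpy 2.4.6, pandas 2.3.3, figures in matplotlib 3.10.9), with other normalizations from limma 3.58.1 (R 4.3.3). The number of arrays limits the precision.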

Additional observations from a re-analysis of the deposited data

How the results depend on the processing

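Of the alternatives run on the members, quantile normalization, median centring, cyclic loess, normexp, the authors' matrix, 2 filters on dim probes, kept outlier spots, the median over probes and leaving out crowded areas were listed at the start, and subtracting the local median was chosen after seeing the data. Cxcl10 stayed between -0.52 and -0.45, Cxcl1 between -0.16 and -0.12 and Cxcl16 between -0.15 and -0.10 in 12 of 12 settings. The median of the members ran from -0.15 to -0.05, and in these settings 1 member (Cxcl10) was below -0.32, 0 were above 0.32 and 0 were 2-fold apart. Among 75 recomputed log2 ratios, 72 moved by less than the technical SD. The other 3 were Cxcl2 (0.0025) and Cxcl3 (0.0023) with normexp and Cxcl10 (-0.45) less the local median. Cxcl9 changed sign with quantile normalization (-0.02), the authors' matrix (-0.01) and less the local median (-0.0066). The stricter filter dropped Cxcl5 and Cxcl9. Background counts beyond 0.32, 577 higher and 492 lower, were 300 and 125 with normexp, 1764 and 1547 without a filter and 129 and 143 with the stricter one. At 2-fold, 39 and 14 became 3 and 0, 510 and 341, and 1 and 0, and 6 were lower without crowded areas. No paired analysis was possible because a single array stands for each culture. Signal over background limits Cxcl5, Cxcl9 and Cxcl14.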

Other observations

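The genes next to the CXC chemokines on their chromosomes were looked at after the data were seen, taking the 5 nearest protein-coding genes on each side in RefSeq order. Of 44 neighbours, 27 were measured, 10 above 0 and 17 below in the IL-6 culture, the median being -0.04 on the log2 scale. Around the chromosome 5 members, 11 of 14 lay below 0, with a median of -0.07, where 56.2% of all measured genes lay below 0. These neighbours include the CXC ligand genes Pf4 and Ppbp, both below 0 and already given above. Next to Cxcl10, Nup54, a nuclear pore gene, had a log2 ratio of -0.04 ± 0.06, Sdad1 -0.08 ± 0.05 and Scarb2, a lysosomal membrane protein gene, -0.12 ± 0.05. Art3, which lies between Cxcl9 and Cxcl10, had -1.06 ± 0.28 at a dim signal of 19.6 with IL-6 and 40.9 without. Epgn, a growth factor gene near Cxcl2, had 1.19 ± 0.28 at 43.1 with IL-6 and 18.8 without. Art3 and Epgn each had 1 measured probe. Zmynd15, the neighbour of Cxcl16, had 1396 with IL-6 and 1712 without, a log2 ratio of -0.29 ± 0.02, against -0.11 ± 0.05 for Cxcl16. The Zmynd15 error is over several spots and that of Cxcl16 over 1 spot. Zmynd15, Nup54 and Sdad1 each had 2 measured probes, of which only the brighter is given.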
